A study of Mus musculus with 8 samples.

Results

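The central and the peripheral tendon spots of the embryonic mouse diaphragm at E14.5 were compared within 3 control sections, each from its own embryo. Spots whose mean log-normalized level of 9 genes of the sarcomere and its calcium release (*Acta1*, *Actn2*, *Des*, *Myl1*, *Mylpf*, *Neb*, *Ryr1*, *Tnnt3*, *Ttn*) lay above Otsu's cut of the section were set aside as muscle. Of the others, those above Otsu's cut of all spots for *Col12a1*, *Col11a1*, *Scx* and *Antxr1* were taken as tendon spots. A tendon spot was central when it lay farther from the convex hull of the section than the median tendon spot, and peripheral when it lay nearer. This gave 90, 104 and 34 central and as many peripheral spots in controls 1, 2 and 3, which is 228 and 228 of 457 tendon spots, of 2338 spots kept at E14.5 in controls, and of 12703 spots kept in all 8 sections of the series. The tendon spots were selected on the measured levels of these 13 genes, which are described without a test, whereas the split into central and peripheral used position only.

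The series holds 10x Visium data of FFPE diaphragm sections from mice. At E14.5 a single CaV1.1 KO stands beside the 3 controls. The E18.5 sections are a pair of controls, another CaV1.1 KO and a bCat cKO. Control embryos carried at least 1 working allele of the gene of CaV1.1, the calcium channel of skeletal muscle, and of β-catenin. The CaV1.1 KO lacks the channel (CaV1.1 -/-), and the cKO, made with a Cre under a skeletal actin promoter and thus in muscle only, is not used here. Each spot of 55 µm holds several cells, at a pitch of 100 µm in a section of 5 µm. In a sum over spots, fewer cells of a type and less RNA per cell cannot be told apart.

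The diaphragm is a sheet of muscle whose fibers run from the ribs and the spine to the central tendon, a plate without muscle in its middle. Tendon cells arise from connective tissue precursors under the transcription factor Scleraxis (*Scx*), then switch on genes such as tenomodulin (*Tnmd*), a membrane protein of maturing tenocytes, and lay down fibrils of type I collagen with small proteoglycans. At the outer rim the fibers end on the connective tissue of the body wall, which in the embryo also holds the mesenchyme of the forming ribs.

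The promoters of 2 genes that were higher in central and of 2 that were lower are shown because E-boxes, with the letters CANNTG, are the motif bound by Scleraxis and other bHLH proteins. Each run holds the 250 bases upstream of the RefSeq start (GRCm38.p6), 5′ to 3′ on the strand of the gene, with E-boxes in capitals.
Tnmd, chrX:133850758-133851007, plus strand: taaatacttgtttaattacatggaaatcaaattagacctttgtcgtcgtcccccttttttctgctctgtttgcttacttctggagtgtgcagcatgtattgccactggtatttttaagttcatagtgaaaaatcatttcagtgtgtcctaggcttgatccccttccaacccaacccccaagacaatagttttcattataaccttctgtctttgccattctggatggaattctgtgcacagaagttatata
Fmod, chr1:134037004-134037253, plus strand: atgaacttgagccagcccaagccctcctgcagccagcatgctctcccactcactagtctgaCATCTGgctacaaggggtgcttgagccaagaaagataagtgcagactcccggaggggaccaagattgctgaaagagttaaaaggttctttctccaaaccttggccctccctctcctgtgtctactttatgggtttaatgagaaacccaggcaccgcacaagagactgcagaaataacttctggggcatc
Bmper, chr9:23222826-23223075, plus strand: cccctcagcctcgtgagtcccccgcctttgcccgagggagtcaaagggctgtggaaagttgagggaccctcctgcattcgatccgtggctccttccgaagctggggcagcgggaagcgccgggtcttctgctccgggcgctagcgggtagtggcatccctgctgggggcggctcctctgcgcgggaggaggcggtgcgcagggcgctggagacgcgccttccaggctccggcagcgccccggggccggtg
Tnc, chr4:64047016-64047265, minus strand: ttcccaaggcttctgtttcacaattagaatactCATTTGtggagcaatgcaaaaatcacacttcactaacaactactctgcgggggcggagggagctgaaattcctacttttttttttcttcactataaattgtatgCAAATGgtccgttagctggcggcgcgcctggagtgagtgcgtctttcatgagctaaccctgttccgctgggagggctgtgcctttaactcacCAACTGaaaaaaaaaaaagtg
The *Tnmd* and *Bmper* windows hold no E-box, the *Fmod* window 1 and the *Tnc* window 3. The motif reads the same on both strands when its inner letters are free, so each place was counted once. Of the 12 genes named below as higher in central spots 11 have a promoter entry and 4 of these hold an E-box (36.4%), and of the 11 named as lower 6 have an entry and 2 hold one (33.3%). Over all 32851 RefSeq entries of mouse the share was 66.2%.

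The tendon spots of controls 1, 2 and 3 summed to 2525447, 3944020 and 476533 UMIs in central and 4307761, 4076775 and 523437 in peripheral spots, so control 3 gave the least precise values. The median spot held 16290, 38499 and 15054 UMIs in central and 33413, 38739 and 15865 in peripheral spots, and the depth of both parts differed most in control 1. The tendon cut lay at a mean level of 0.881, 0.966 and 1.06, with the lowest spot inside at 0.881, 0.967 and 1.09 and the highest outside at 0.876, 0.962 and 1.05. The median distance to the hull was 941, 631 and 687 µm, with the nearest central spot at 946, 635 and 693 µm and the nearest peripheral spot at 935, 626 and 650 µm. Central spots formed mostly 1 plate, since 84 of 90, 88 of 104 and 25 of 34 spots lay in a single patch of touching spots. Peripheral spots fell into 26, 13 and 6 patches, the largest of 20, 39 and 15 spots. At least 1 muscle spot touched 46.7%, 70.2% and 50% of central and 73.3%, 51.0% and 50% of peripheral spots.

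**Figure D1:**
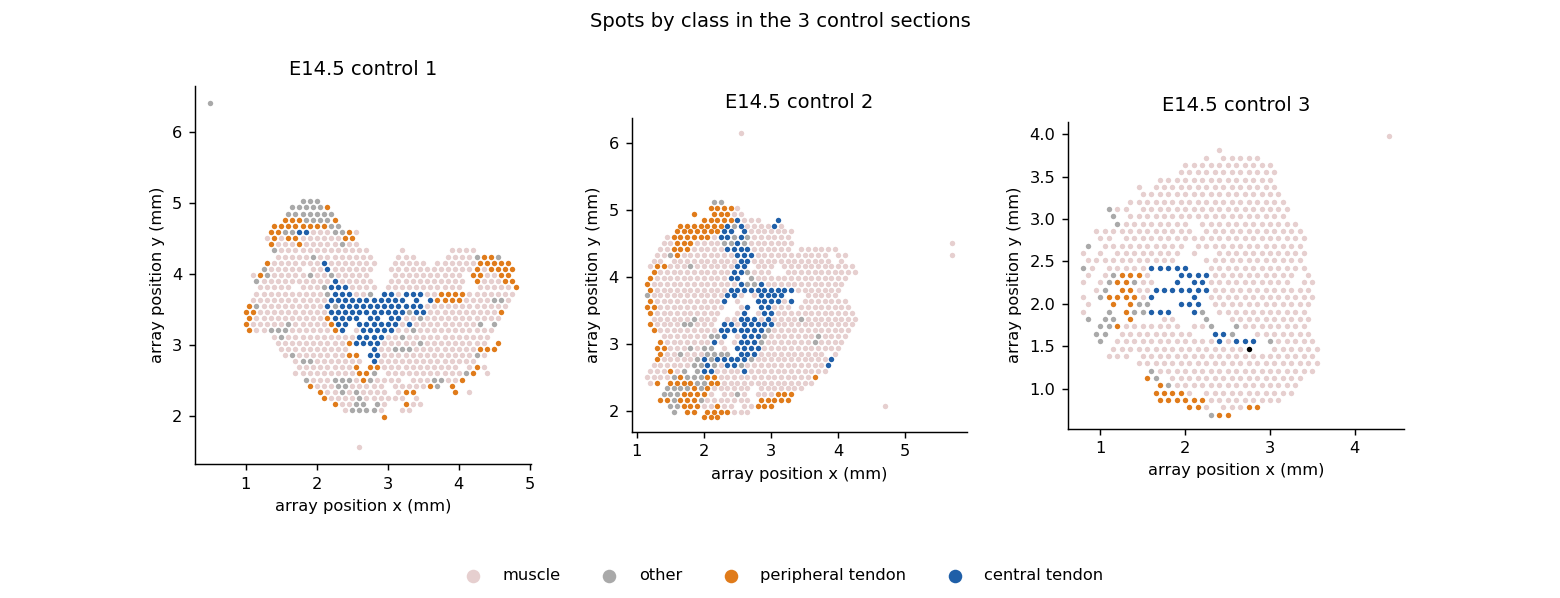
Positions of all kept spots in the 3 E14.5 control sections, in mm, colored by whether the rule made them muscle, central tendon, peripheral tendon or other. Central spots (90, 104 and 34) form a plate in the middle of each section, and peripheral spots lie nearer the outer rim, in patches of up to 39 spots. The black point is the 1 tendon spot of control 3 that lay at the median distance and belongs to neither part.

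The genes that chose the spots were above muscle in both parts. *Col11a1* was at 469, 430 and 685 CPM (the UMI rate of a gene in the sum over spots, scaled with TMM factors) in central and at 170, 213 and 372 in peripheral spots of controls 1, 2 and 3. *Scx* was at 157, 140 and 263 in central and 86.4, 95.9 and 160 in peripheral spots, whereas *Col12a1*, a collagen on the fibril surface, was higher in central spots of controls 1 and 3 only. *Antxr1*, a receptor that binds matrix collagen, was lower in central spots of controls 1 and 2. The label tendon was then checked with *Tnmd*, which the rule did not read. Its raw CPM, without TMM scaling, was 48, 56 and 66 in muscle spots. In peripheral spots its raw level was 73.1, 65.2 and 218, near that of muscle in controls 1 and 2, and in central spots 784, 426 and 1037. Of other tendon genes outside the rule, *Fmod* and *Tnc* were above muscle in the peripheral spots of each section, but *Six2*, *Mkx* and *Kera* were not. *Fmod*, a proteoglycan of collagen fibrils, was there at 118, 109 and 187 raw CPM against 52.6, 77.5 and 87.6 in muscle. *Tnc*, a matrix protein, was at 794, 1049 and 502 against 261, 339 and 250 raw CPM. *Col1a2*, a chain of type I collagen, was at 5437, 6123 and 7227 against 2636, 3319 and 3313, and *Meox2* at 223, 218 and 394 against 127, 159 and 137 raw CPM. By *Tnmd* the peripheral spots of controls 1 and 2 thus lay near muscle. By *Fmod*, *Tnc*, *Col1a2* and *Meox2* those of all 3 sections lay above it. Muscle spots were set apart by their muscle genes, so genes of other cells can lie above them too, and this does not settle the label. Macrophage genes summed to 696, 533 and 564 raw CPM in peripheral and 214, 210 and 245 in muscle spots. Schwann cell genes were lower in peripheral than in muscle spots. In the spots that are neither muscle nor tendon *Fmod* was at 43.3, 104 and 137 raw CPM.

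Of 11936 genes tested beside the 13 of the rule, 1010 differed between central and peripheral spots (8.46%; edgeR quasi-likelihood F test with the section as a block, adjusted p under 0.05). In central spots 473 were higher (3.96% of those tested) and 537 lower (4.5%), and 883 of them moved the same way in all 3 sections. The change was more than 1 on the log2 scale in 144 of the higher genes and beyond -1 in 201 of the lower genes. The median over all genes tested was -0.00026. Without control 1, 2 or 3 the genes called higher were 313 of 11570, 301 of 10899 and 432 of 12298. Those called lower were 410, 284 and 432. The counts per list below stand beside these totals, but members and lists were chosen with earlier results of these data known. The share called was above 8.46% in every list, the lowest being 16.7% in proliferation. An excess of calls in a list, or of 1 direction among them, is therefore not read as a result. With 2 residual degrees of freedom the calls lean on the block: a fit without it called 0 genes, with 1100 at an unadjusted p under 0.05. DESeq2 called 269 of them in the same direction, among them the 12 higher and 11 lower genes named below. Without the tendon spots that touched muscle 55 of 10812 genes tested were called, 27 higher and 28 lower. All 55 were among the 1010 with the same direction. This setting kept 36, 41 and 17 spots per part in controls 1, 2 and 3, split again at their median distance. For a call lost there, fewer spots and the distance from muscle cannot be told apart. Of 77 genes named here as called 73 could be tested there, where 29 kept the call and 44 lost it, and 16 of the 29 lists held no called member. Collagens went to 0 called members, matricellular proteins to 0 higher and 2 lower, Hox genes to 0 and 2, and mesenchymal and diaphragm transcription factors to 0 and 5.

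The genes described first in each direction come from the 12 with the largest change among called genes with a mean level of 5 or more (log2 CPM) and 1 direction in all 3 sections. Of those higher in central spots *Tnmd* (chrX:133851008-133865577) changed most. It was at 816, 425 and 1064 CPM in central and 71.4, 64.7 and 215 CPM in peripheral spots, with no overlap between the parts. The change was 2.91 ± 0.15 (log2, SE, n = 3 sections), which is 7.53-fold (adjusted p = 1.2e-10). *Six2*, a homeobox factor, was at 133, 76.5 and 153 CPM in central and 27.7, 4.87 and 45.3 in peripheral spots, higher by 2.61 ± 0.21 (adjusted p = 7e-08). *Ecrg4*, which codes for a secreted peptide precursor, was at 216, 140 and 256 in central and 39.5, 30.4 and 68 in peripheral spots (2.27 ± 0.11, adjusted p = 1.2e-10). For both genes the lowest central sum lay above the highest peripheral sum. Genes whose sums are said not to overlap, here and below, were picked for their change. A lack of overlap therefore describes them and adds no support to their calls. The share without overlap over all genes tested was not counted.

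Among secreted proteases and their relatives, *Prss35* was at 737, 559 and 1155 CPM in central and 150, 97.6 and 449 in peripheral spots. Its change was 2.11 ± 0.14 (adjusted p = 5.5e-09), and the 3 central sums did not overlap the peripheral ones. *Htra1* and *Htra3*, secreted serine proteases that cut matrix proteins, and *Adamtsl3*, a matrix protein related to the ADAMTS proteases, were higher by 1.83 ± 0.11, 1.80 ± 0.11 and 1.77 ± 0.13. *Htra1* was at 230, 151 and 315 CPM in central and at 60.8, 48.4 and 75.5 in peripheral spots. *Htra3* was at 357, 283 and 758 in central and 78.5, 94.9 and 249 in peripheral spots. Of the 29 tested members of the list of proteases and inhibitors 5 were called higher, these 4 among them, and 9 lower (median -0.29). Leaving out control 1, 2 or 3 gave 5, 6 and 5 higher and 9, 6 and 8 lower members. *Adam12*, a membrane metalloprotease of muscle and mesenchyme, was lower at 82.4, 117 and 75.4 CPM in central against 194, 239 and 164 in peripheral spots (-1.13 ± 0.10). *Adamts6*, which also cleaves matrix, fell by 1.58 ± 0.18. The gelatinase *Mmp2* was at 383, 408 and 457 in central and 397, 505 and 446 CPM in peripheral spots and was not called (-0.13 ± 0.09).

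The remaining genes of this group have diverse roles. *Erg*, an ETS factor of endothelium and of developing cartilage and tendon, was at 100, 62.3 and 149 CPM in central and 15.9, 27.7 and 37.8 in peripheral spots (1.88 ± 0.20). *Lhx2*, a LIM homeobox factor, was at 77.8, 74.4 and 153 against 40.1, 15.1 and 41.5 CPM (1.59 ± 0.19). *Sec16b*, which acts at the exit sites of the endoplasmic reticulum, was at 58.1, 40.5 and 84 against 20.9, 15.6 and 15.1 CPM (1.54 ± 0.17). In each of the 3 genes every central sum lay above every peripheral sum. Without the spots that touched muscle, *Erg*, *Lhx2* and *Sec16b* kept their direction and lost the call (adjusted p = 0.0932, 0.0783 and 0.12).

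**Figure D2:**
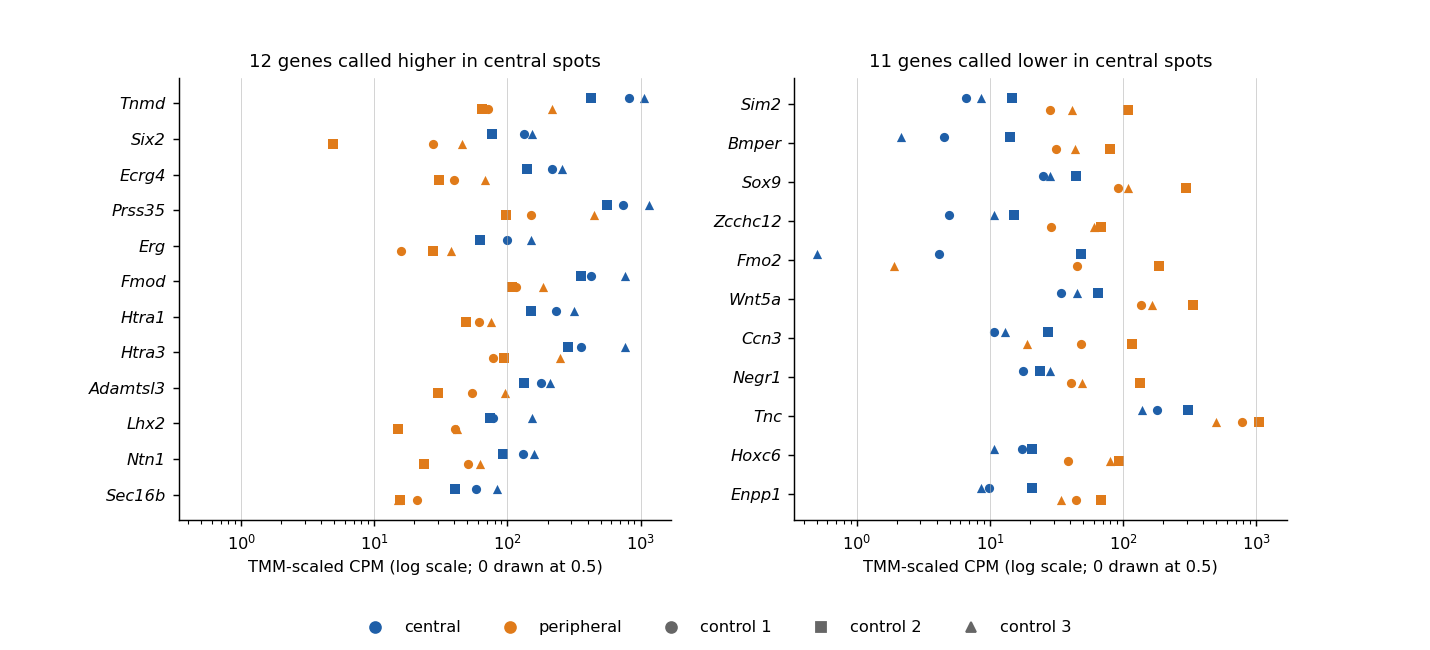
TMM-scaled CPM (log axis) of the 12 genes called higher and 11 called lower in central spots, with 1 point per section and part. *Tnmd* reaches 1064 CPM in central spots of control 3, and *Fmo2* has 0 UMIs there, drawn at 0.5. In the right panel the blue points of every gene but *Fmo2* and *Ccn3* lie left of all its orange points. The genes were picked for their change and for 1 direction in all 3 sections. The share without overlap over all genes tested was not counted.

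Several transcription factors of tendon were higher in central spots. Of 11 tested members of the list outside the rule 7 were called higher and 2 lower (median 0.49), and leaving out control 1, 2 or 3 gave 6, 6 and 7 higher and 2, 1 and 1 lower. *Mkx*, a homeobox factor needed for tendon collagen, was at 43.2, 33.2 and 56 CPM in central and 10.7, 5.84 and 15.1 in peripheral spots (2.18 ± 0.21, adjusted p = 4.3e-07). *Meox2*, a homeobox factor of somitic mesoderm, was at 544, 481 and 685 against 218, 216 and 389 CPM (1.13 ± 0.10, adjusted p = 1.8e-07). Its relative *Meox1* went the other way, at 75.8, 79.5 and 60.3 in central and 130, 177 and 168 CPM in peripheral spots (-1.05 ± 0.12, adjusted p = 3.4e-06). None of these 3 genes overlapped between the parts, and all 3 stayed called without the spots that touched muscle, as did *Six2*. *Eya2*, a partner of *Six2* and its relatives, was higher by 1.0 ± 0.21 (adjusted p = 0.0035), but not without control 2 (adjusted p = 0.0866). *Eya1* was at 45.7, 27.1 and 25.9 in central and 46.7, 51.6 and 81.2 CPM in peripheral spots (-0.62 ± 0.19, adjusted p = 0.043), with a call lost without control 2 (0.46) or control 3 (0.18).

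Type I collagen, the main fibril of tendon, was higher in central spots. *Col1a1* was at 19058, 15594 and 24944 CPM in central and 10523, 12016 and 13526 in peripheral spots, a change of 0.70 ± 0.11 (adjusted p = 0.00016). *Col1a2* was at 9644, 8005 and 13976 against 5312, 6074 and 7142 CPM (0.74 ± 0.11, adjusted p = 8.8e-05). Both chains were higher in 3 of 3 sections with no overlap, and both lost the call without the spots that touched muscle (0.12 and 0.15). Of 22 collagens tested 9 were called higher and 4 lower (median 0.24), and without control 1, 2 or 3 these were 7, 8 and 7 higher and 2, 1 and 4 lower. *Col13a1*, a membrane collagen, was at 262, 193 and 220 in central and 124, 51.1 and 225 CPM in peripheral spots, higher in controls 1 and 2 only (1.15 ± 0.19). *Col25a1*, also a membrane collagen, was lower at 17.7, 24.8 and 19.4 against 40.8, 55.7 and 66.1 CPM (-1.24 ± 0.16). *Col5a1*, which sets fibril width, was at 974, 895 and 1319 against 745, 1062 and 1042 CPM and was not called (0.15 ± 0.11) except without control 2 (adjusted p = 0.035).

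Among enzymes and helpers of collagen, *Pcolce*, which speeds the trimming of procollagen, was at 1104, 922 and 1327 CPM in central and 484, 551 and 597 in peripheral spots (1.02 ± 0.10, adjusted p = 6.2e-07). *Loxl2*, which crosslinks collagen, was at 162, 225 and 155 against 304, 471 and 366 CPM (-1.04 ± 0.10, adjusted p = 3.5e-07). The 2 genes moved apart without overlap, and both stayed called without the spots that touched muscle. Its relative *Loxl1* was lower by 0.70 on the log2 scale, at 132, 141 and 101 against 180, 255 and 193 CPM. Of 25 members tested 6 were called higher and 4 lower (median 0.21). The count of higher members depended on the section left out, with 2, 12 and 3 without control 1, 2 or 3. *Sparc*, a collagen-binding protein, was higher in controls 1 and 3 but not in control 2, at 2701, 2304 and 3045 against 1950, 2430 and 2088 CPM, and was not called (0.31 ± 0.11, adjusted p = 0.091) but was without control 2 (0.0015).

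Small leucine-rich proteoglycans bind collagen fibrils and set their size. *Fmod* (fibromodulin) was at 425, 357 and 769 CPM in central and 115, 109 and 185 in peripheral spots, higher by 1.86 ± 0.10 or 3.63-fold (adjusted p = 1.2e-10). *Kera* (keratocan) was counted with 53, 71 and 7 UMIs in central and 12, 6 and 1 UMIs in peripheral spots (3.21 ± 0.34, adjusted p = 2e-06). Its peripheral sums, at 2.72, 1.46 and 1.89 CPM, lay below the count filter, which *Kera* passed only through its central sums. Neither gene overlapped between the parts in CPM, and both stayed called without the spots that touched muscle. *Lum* (lumican) was lower, at 507, 554 and 433 against 710, 711 and 583 CPM (-0.42 ± 0.09, adjusted p = 0.0035), and *Bgn* (biglycan) higher, at 636, 532 and 838 against 389, 458 and 566 CPM (0.49 ± 0.10, adjusted p = 0.0027). Without control 1 neither was called (0.061 and 0.080). Of 9 members tested 4 were called higher and 3 lower (median 0.41), with 2, 4 and 3 higher and 2, 1 and 3 lower without control 1, 2 or 3.

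Matricellular proteins, which sit in the matrix and act on cells, were called lower more often than higher, with 7 against 3 of 17 members (median -0.32) and 8, 4 and 5 against 3, 3 and 3 without control 1, 2 or 3. *Tnc* (tenascin C, chr4:63959785-64047015) was at 180, 307 and 138 CPM in central and 776, 1040 and 497 in peripheral spots. This is a fall of 1.91 ± 0.10 (adjusted p = 1.3e-10) with no overlap, though in spots that touched no muscle it was not called (0.13). *Tgfbi*, a matrix protein that TGF-β raises, was at 30.9, 84.8 and 45.3 against 115, 260 and 136 CPM (-1.70 ± 0.11, adjusted p = 3.2e-09), and *Ccn3* at 10.7, 27.3 and 12.9 against 48.1, 116 and 18.9 CPM (-2.03 ± 0.17, adjusted p = 9.4e-08). Both stayed called in spots that touched no muscle. The opposite held for *Thbs2* (thrombospondin 2), at 1002, 650 and 1388 CPM in central and 265, 397 and 568 in peripheral spots (1.30 ± 0.15). *Cilp*, a matrix protein of cartilage and tendon, also was higher (1.31 ± 0.16). *Postn* (periostin) was at 1776, 1331 and 1952 against 1147, 2164 and 1894 CPM, higher in central spots of controls 1 and 3 and lower in control 2, and not called (-0.01 ± 0.15).

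*Thbs4*, a thrombospondin of tendon and of the junction with muscle, did not behave alike in the sections. It was at 104, 60 and 51.7 CPM in central and 90.3, 228 and 406 in peripheral spots, so lower in central spots of controls 2 and 3 only (-1.25 ± 0.29, adjusted p = 0.0074). The call was lost without control 2 (0.065) or control 3 (0.13) and with DESeq2 (0.68). Of 11 genes of the myotendinous junction 3 were called higher and 3 lower (median 0.22), with 0, 2 and 3 higher and 3, 1 and 2 lower without control 1, 2 or 3. *Fras1*, a protein of basement membranes, was lower at 46.5, 72.7 and 32.3 against 130, 128 and 52.9 CPM (-1.07 ± 0.13). *Col22a1*, a collagen at the tips of muscle fibers, was at 51.9, 26.3 and 49.6 against 30.8, 17 and 26.4 CPM (0.72 ± 0.16), and not called without control 1 (0.15).

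Among ligands of the Wnt family, *Wnt5a*, which acts mostly without β-catenin, was at 34.2, 65.1 and 45.3 CPM in central and 137, 333 and 166 in peripheral spots. It fell by 2.18 ± 0.12 (adjusted p = 1.4e-10) with no overlap. *Wnt11*, a ligand of the same branch, was at 0 to 7.09 in central and 5.66 to 14.1 CPM in peripheral spots and lost its call without control 1 (0.13). Of the secreted Wnt antagonists, *Sfrp2* was at 120, 143 and 90.5 against 269, 581 and 276 CPM (-1.62 ± 0.13, adjusted p = 7.2e-08). *Sfrp4* was counted with 4, 10 and 2 UMIs in central and 55, 44 and 6 in peripheral spots (-2.27 ± 0.39). With so few central UMIs, *Sfrp4* could enter the test through its peripheral sums, the part where it is high. *Wnt5a* and *Sfrp2* stayed called in spots that touched no muscle. *Daam2*, a cytoplasmic protein of Wnt signaling, was at 38.3, 63.8 and 49.6 against 74.2, 125 and 121 CPM and also called lower. The receptor *Fzd2* was at 317, 338 and 356 against 318, 378 and 440 CPM and not called (-0.14 ± 0.09). Of 31 members tested 3 were called higher and 10 lower (median -0.41), and without control 1, 2 or 3 these were 2, 2 and 2 higher and 11, 8 and 11 lower.

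In the TGF-β and BMP family the largest called change was that of *Bmper*, a secreted regulator that binds BMP proteins. It was at 4.53, 14.2 and 2.15 CPM in central and 31.1, 79.3 and 43.4 in peripheral spots, a change of -2.63 ± 0.20 (log2, adjusted p = 3e-08). In control 3 this rests on 1 UMI against 23, in control 1 on 11 against 137. With so few central UMIs, *Bmper* could enter the test through its peripheral sums, the part where it is high. Its mean level of 5.09 (log2 CPM) lay just above the floor of 5 for the genes described first. Among ligands, *Bmp3* was higher at 44.9, 31.4 and 151 against 17.7, 21.2 and 49.1 CPM (1.09 ± 0.18), and *Bmp5* lower at 3.71, 5.57 and 10.8 against 8.62, 24.1 and 17 CPM (-1.67 ± 0.32). The call of *Bmp5* was lost without control 2 (0.27). *Tgfb3*, a ligand expressed in embryonic tendon, was at 329, 331 and 284 against 337, 424 and 357 CPM and not called (-0.23 ± 0.10). Of 34 members 3 were called higher and 7 lower (median -0.31), with 2, 3 and 3 higher and 5, 3 and 5 lower without control 1, 2 or 3.

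Of 18 members of FGF signaling 1 was called higher and 3 lower (median -0.02), with 0, 0 and 1 higher and 4, 1 and 2 lower without control 1, 2 or 3. *Flrt2*, a membrane protein that binds FGF receptors, was at 98, 133 and 114 CPM in central and 182, 301 and 257 in peripheral spots (-1.07 ± 0.10, adjusted p = 4.5e-07). *Fgfr2*, a receptor, was at 31.7, 58.2 and 40.9 against 42.6, 101 and 90.6 CPM (-0.72 ± 0.13), with a call lost without control 2 (0.089). The lowest peripheral sum of *Fgfr2* lay within the range of the central ones, whereas *Flrt2* did not overlap. *Fgf7*, a ligand made by mesenchyme, was also lower (-0.96 ± 0.21), except without control 2 (0.43) or control 3 (0.0525).

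Factors that pattern mesenchyme were called lower in central spots more often than higher. *Sim2*, a bHLH-PAS factor, was at 6.59, 14.7 and 8.62 CPM in central and 28.3, 109 and 41.5 in peripheral spots (-2.65 ± 0.19, adjusted p = 1.2e-08). *Sox9* (chr11:112782210-112787757), the master factor of cartilage that is also present in tendon cells at their attachment to cartilage, was at 25.1, 44.1 and 28 against 91.6, 294 and 108 CPM (-2.39 ± 0.15, adjusted p = 1.6e-09). No peripheral sum of these genes came down to a central one, and both stayed called without the spots that touched muscle. Of 37 members of the list of mesenchymal and diaphragm transcription factors 8 were called higher and 17 lower (median -0.31; 5 and 12 with DESeq2), with 9, 5 and 6 higher and 13, 16 and 16 lower without control 1, 2 or 3. Over all 37 the fitted change was above 0 in 16 and below 0 in 21. *Alx1* and *Alx4*, homeobox factors of skeletal mesenchyme, were lower by 2.54 and 2.10 on the log2 scale. *Gata4*, which acts in the mesenchyme that covers the early diaphragm, was at 94.7, 142 and 103 against 146, 80.5 and 119 CPM, higher in central spots of control 2 only, and was not called (0.07 ± 0.18). Without control 1 its change was 0.57 (adjusted p = 0.0029) and without control 2 it was -0.53 (adjusted p = 0.015).

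Hox genes, which give position along the body axis, were mostly lower among those called. Of 18 tested 9 were called lower and 1 higher (median -0.30), with 8, 7 and 9 lower and 0, 0 and 0 higher without control 1, 2 or 3. Over all 18 the fitted change was above 0 in 8 and below 0 in 10. *Hoxc6* was at 17.3, 20.8 and 10.8 CPM in central and 38.8, 93.4 and 79.3 in peripheral spots (-1.88 ± 0.19, adjusted p = 1.4e-06). *Hoxc8* was counted with 3, 22 and 0 UMIs in central and 51, 232 and 17 UMIs in peripheral spots (-3.41 ± 0.29, adjusted p = 1.3e-07). With so few central UMIs, *Hoxc8* could enter the test through its peripheral sums, the part where it is high. *Hoxc6* and *Hoxc8* both stayed called in spots that touched no muscle, and neither overlapped between the parts. *Hoxb6* and *Hoxa7* fell by 2.26 and 2.55 on the log2 scale. The 6 called members with the largest change, *Hoxc8*, *Hoxa7*, *Hoxb6*, *Hoxc9*, *Hoxc6* and *Hoxb7*, carry numbers from 6 to 9 in their clusters. The other called members are not named here. *Hoxb7* kept its call in 7 other settings and lost it in 6, among them that without control 3 (0.078). Away from muscle *Hoxa7* and *Hoxb6* lost the call, and *Hoxc9* and *Hoxb7* were not tested. *Hoxb2*, from the anterior end of its cluster, was at 68.8, 59.5 and 66.8 against 52.8, 50.4 and 37.8 CPM and was not called (0.36 ± 0.13, adjusted p = 0.092).

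Genes for the guidance of axons and cells moved both ways, with 5 higher and 8 lower of 42 (median -0.06). *Ntn1* (netrin 1) was at 131, 92.7 and 157 CPM in central and 50.8, 23.6 and 62.3 in peripheral spots (1.58 ± 0.13, adjusted p = 7e-08). *Plxdc2*, a membrane protein with a plexin domain, was at 177, 137 and 282 against 60.3, 63.5 and 108 CPM (1.34 ± 0.11, adjusted p = 7e-08). *Slit2*, a repellent for axons, was at 76.2, 91.4 and 36.6 against 133, 242 and 121 CPM (-1.19 ± 0.13, adjusted p = 2.2e-06). None of these 3 overlapped, and all stayed called in spots that touched no muscle. *Negr1*, an adhesion protein of neurons, was lower at 17.7, 23.8 and 28 against 40.6, 134 and 49.1 CPM (-1.93 ± 0.21), but was not called there (0.16). Without control 1, 2 or 3 the list held 6, 4 and 4 higher and 11, 3 and 6 lower members.

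Other members of the 11 lower genes were *Zcchc12*, *Fmo2* and *Enpp1*. *Zcchc12*, a coactivator with a zinc finger, was at 4.94, 15.2 and 10.8 CPM in central and 28.8, 67.9 and 60.4 in peripheral spots (-2.28 ± 0.19). *Enpp1*, which makes the mineral inhibitor pyrophosphate, was at 9.88, 20.8 and 8.62 against 44.4, 68.6 and 34 CPM (-1.88 ± 0.17). Neither overlapped between the parts, and both lost the call in spots that touched no muscle (0.067 and 0.52). *Fmo2*, a flavin monooxygenase, was counted with 10, 192 and 0 UMIs in central and 199, 765 and 1 UMIs in peripheral spots (-2.19 ± 0.18), so that control 3 adds nearly nothing to it.

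Of 14 genes of the insulin-like growth factors 4 were called higher and 3 lower (median 0.01), with 4, 4 and 4 higher and 1, 1 and 3 lower without control 1, 2 or 3. *Igf2*, the main growth factor of the embryo, was at 3561, 3662 and 3734 CPM in central and 3092, 3703 and 3398 in peripheral spots and not called (0.11 ± 0.09). *Igfbp3*, which binds it, was at 507, 372 and 515 against 316, 259 and 310 CPM (0.63 ± 0.09). Of 18 genes of proliferation 2 were called higher and 1 lower (median 0.14), and *Mki67*, present in dividing cells, was at 511, 547 and 513 against 474, 460 and 510 CPM (0.14 ± 0.09, not called). *Ccnd2* (cyclin D2) was lower and the cell cycle inhibitor *Cdkn1a* higher in 3 of 3 sections (-0.62 ± 0.09 and 0.57 ± 0.10). Of 15 genes of retinoic acid 2 were called higher and 1 lower (median -0.32), the last being *Aldh1a2*, which makes retinoic acid, at 28, 42.8 and 28 against 51.3, 77.1 and 41.5 CPM (-0.83 ± 0.14). Of 16 elastic fibre genes 1 was called higher and 3 lower (median -0.08; without control 2 these were 3 and 1), and *Fbln2* (fibulin 2) was at 219, 237 and 153 against 339, 477 and 181 CPM (-0.73 ± 0.11).

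**Figure D3:**
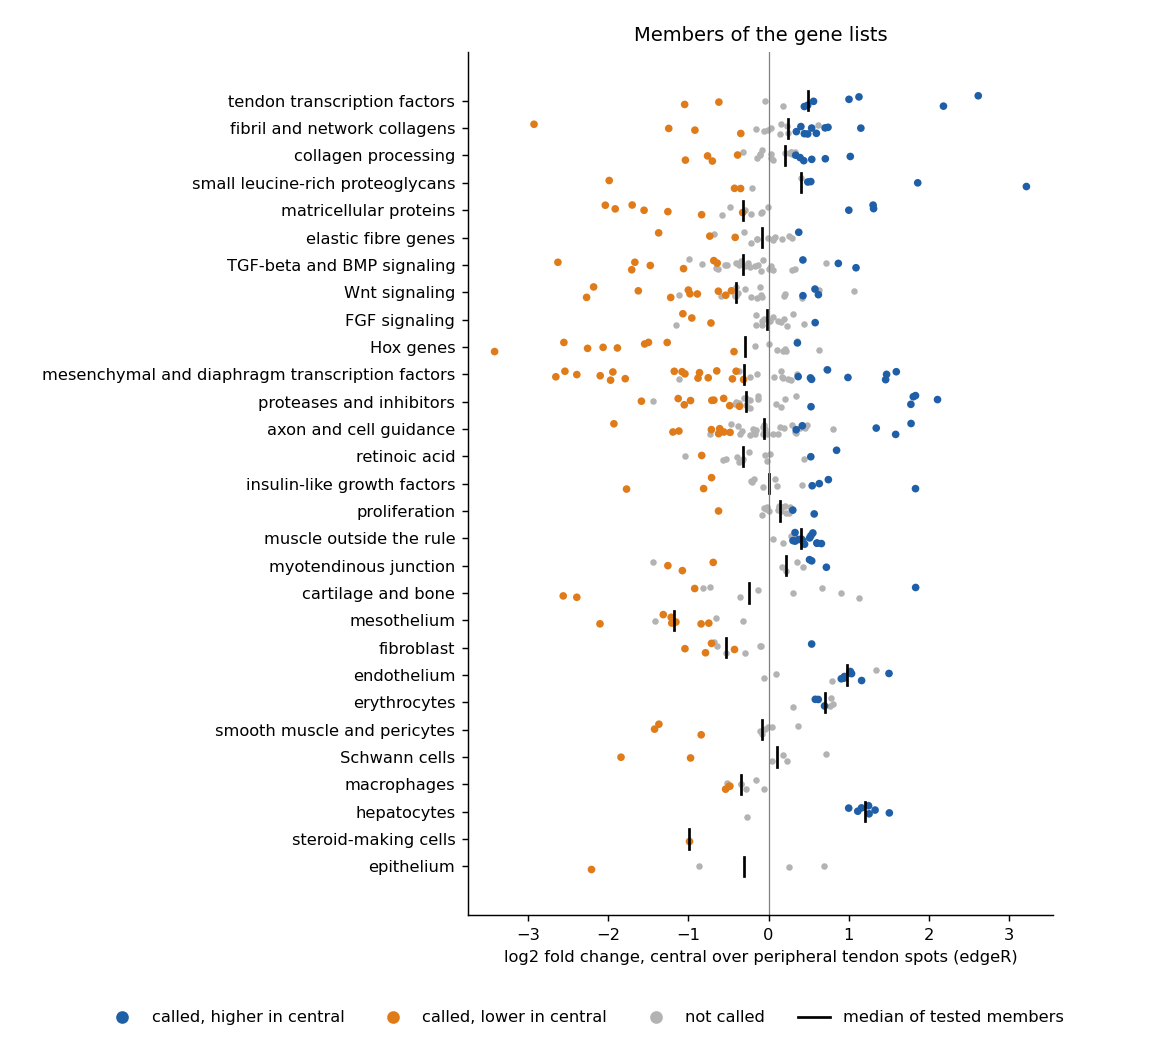
Log2 fold change of central over peripheral spots (edgeR) for each tested member of 29 gene lists, colored by call, with the median of the list as a black bar. Mesothelium (-1.18) lies left of 0 and hepatocytes (1.20), endothelium (0.98) and muscle (0.41) right of it, while most matrix and signaling lists spread to both sides.

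Genes of other cell types moved with these contrasts, and their part in the results above was not tested. Muscle genes outside the rule were called higher in central spots in 13 of 17 cases and lower in 0 (median 0.41), with 5, 4 and 11 higher without control 1, 2 or 3 and 6 higher when library size alone set the scale. Their summed raw level was 12071, 6754 and 6908 CPM in central and 9492, 4715 and 6603 in peripheral spots, against 27143, 21449 and 22257 in muscle, and none of the 17 was at 0 in either part. *Tnni1*, a slow troponin, was at 1533, 751 and 726 against 998, 454 and 621 CPM (0.55 ± 0.10), and *Atp2a1*, the calcium pump of fast fibers, was higher by 0.61 ± 0.11. Across sections these sums overlapped between the parts, but central was above peripheral within each section. Away from muscle they were lower in central spots of control 3, at 4310 against 4989 CPM.

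Hepatocyte genes were called higher in 7 of 8 cases (median 1.20; 7, 3 and 7 without control 1, 2 or 3). Their summed raw level was 76.4, 2144 and 2212 CPM in central and 8.82, 773 and 1779 in peripheral spots, and 11.5, 7365 and 10085 in the spots that are neither muscle nor tendon. *Alb* (albumin) was at 34.2, 1066 and 1120 against 3.4, 358 and 902 CPM. Erythrocyte genes were called higher in 3 of 7 cases (median 0.70; 4, 1 and 3 without control 1, 2 or 3), at summed raw levels of 192, 7744 and 7773 in central and 167, 3602 and 6285 CPM in peripheral spots. Both lists were far lower in control 1 than in controls 2 and 3. *Tnmd* was at 816, 425 and 1064 CPM in central and 71.4, 64.7 and 215 in peripheral spots. The part of both lists in its contrast was not tested.

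Endothelial genes were called higher in 8 of 12 cases (median 0.98; 7, 5 and 9 without control 1, 2 or 3). They summed to 703, 685 and 481 CPM in central and 462, 329 and 472 in peripheral spots, nearly equal in control 3. *Cdh5*, the cadherin of endothelium, was at 195, 180 and 119 against 105, 68.1 and 104 CPM (1.01 ± 0.13), which stands beside the result for *Erg*, also an endothelial gene.

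Mesothelial genes were called lower in 7 of 10 cases and higher in 0 (median -1.18; 6, 4 and 7 lower without control 1, 2 or 3). They summed to 184, 378 and 172 CPM in central and 467, 686 and 231 in peripheral spots. *Wt1*, a factor of mesothelium, was at 51.1, 92.2 and 45.3 against 117, 131 and 104 CPM (-0.84 ± 0.13), and *Msln* (mesothelin) fell by 2.10 ± 0.22. These values stand beside those of the factors and ligands that were lower in central spots. No member of the hepatocyte, erythrocyte, endothelial or mesothelial list was at 0 in either part.

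Cartilage and bone genes were called higher in 1 and lower in 3 of 12 cases (median -0.24), *Sox9* among them, with 5 higher and 2 lower without control 2. They summed to 422, 422 and 741 CPM in central and 309, 983 and 543 in peripheral spots, so the sum was higher in central spots of controls 1 and 3 and lower in control 2. The cartilage genes *Matn1* and *Snorc* had 0 UMIs in central spots and *Col10a1*, of mature cartilage, had 0 in peripheral spots. *Col2a1*, the collagen of cartilage, was at 60.1, 41 and 205 against 10.2, 68.9 and 24.5 CPM and not called (0.91 ± 0.40), but was without control 2 (2.71, adjusted p = 2.08e-13). *Runx2*, the factor of bone formation, was counted with 1, 21 and 1 UMIs in central and 50, 94 and 11 in peripheral spots (-2.56 ± 0.36). It too could enter the test through its peripheral sums, the part where it is high.

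In the other lists the called members were lower in central spots, but for 1 fibroblast gene. Fibroblast genes were called higher in 1 and lower in 4 of 11 cases, smooth muscle and pericytes lower in 3 of 9 (1 without control 2), macrophages lower in 3 of 9 (0 without control 1 or 3), Schwann cells lower in 2 of 6 (1 without control 1 or 2), epithelium lower in 1 of 4 and steroid-making cells lower in the 1 tested. *Cd248*, a surface protein of fibroblasts and pericytes, was at 122, 168 and 136 against 208, 286 and 179 CPM (-0.71 ± 0.10). The macrophage sum was lower in central spots of each section, at 398, 498 and 346 against 696, 533 and 564 CPM. The genes of steroid-making cells reached 6086 CPM in the spots of control 1 that are neither muscle nor tendon, and 48.7 and 179 CPM in its central and peripheral spots.

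The patches of peripheral spots differed from each other. In control 2 the 3 patches of at least 10 touching peripheral spots (39, 23 and 11 spots) had *Sim2* at 142, 11.4 and 98.8 raw CPM and *Sox9* at 166, 555 and 269. The patch with the lowest *Sim2* held the highest *Sox9*, and *Tnc* was at 940, 1297 and 1030 in them. The patches also differed in genes of other tissue, with *Alb* at 63.7, 1154 and 187 and *Msln* at 93.9, 11.4 and 6.31 raw CPM in the same order. In control 3 a peripheral patch of 15 spots had *Tnmd* at 338, *Tnc* at 167 and *Sox9* at 33.4 raw CPM, and another of 13 spots *Tnmd* at 110, *Tnc* at 758 and *Sox9* at 192. The first of these was closer to the central patch of its section, which had *Tnmd* at 1170, *Tnc* at 125 and *Sox9* at 31.9 raw CPM. *Thbs4* was at 852 in the second patch and at 55.6 in the first, and at 700 in 1 of the 3 patches of control 2. In control 1 the 2 patches (20 and 15 spots) had *Tnmd* at 10.3 and 45.5 and *Tnc* at 909 and 1291 raw CPM, against 845 and 172 in the central patch. The values are sums of neighboring spots in 1 section each and were not tested.

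The tendon spots were also split into 3 zones of equal size by their distance to the hull. *Tnmd* was at 49.7, 305 and 919 raw CPM in the outer, middle and inner zone of control 1, at 87.0, 47.3 and 630 in control 2, and at 134, 465 and 1261 in control 3. The inner zone was thus above the outer by 3.43 ± 0.70 (log2, SD, n = 3), and by 2.78 ± 0.50 when the distance was taken to the concave outline. In control 2 the rise lay between the middle and the inner zone. *Tnc* was at 950, 226 and 174 from the outer to the inner zone of control 1, at 976, 868 and 162 in control 2 and at 761, 147 and 121 in control 3. Its fall likewise came farther inside in control 2 than in the other sections. By the hull *Fmod* rose in each step of each section, from 108, 103 and 104 in the outer to 473, 476 and 744 raw CPM in the inner zone. Of the 12 genes higher in central spots 8 rose inward at both steps in 3 of 3 sections and all 12 in at least 2. Of the 11 lower genes 3 fell at both steps in 3 of 3 sections and 9 in at least 2. By the concave outline the steps were less even: 3 of the 12 higher genes rose and 1 of the 11 lower genes fell at both steps in 3 of 3 sections, and 12 and 9 did so in at least 2. *Fmod* was then at 128, 328 and 327 raw CPM in control 1, with no rise at the inner step. Since the zones hold the same spots as the 2 parts, these values describe the contrast and add no test.

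**Figure D4:**
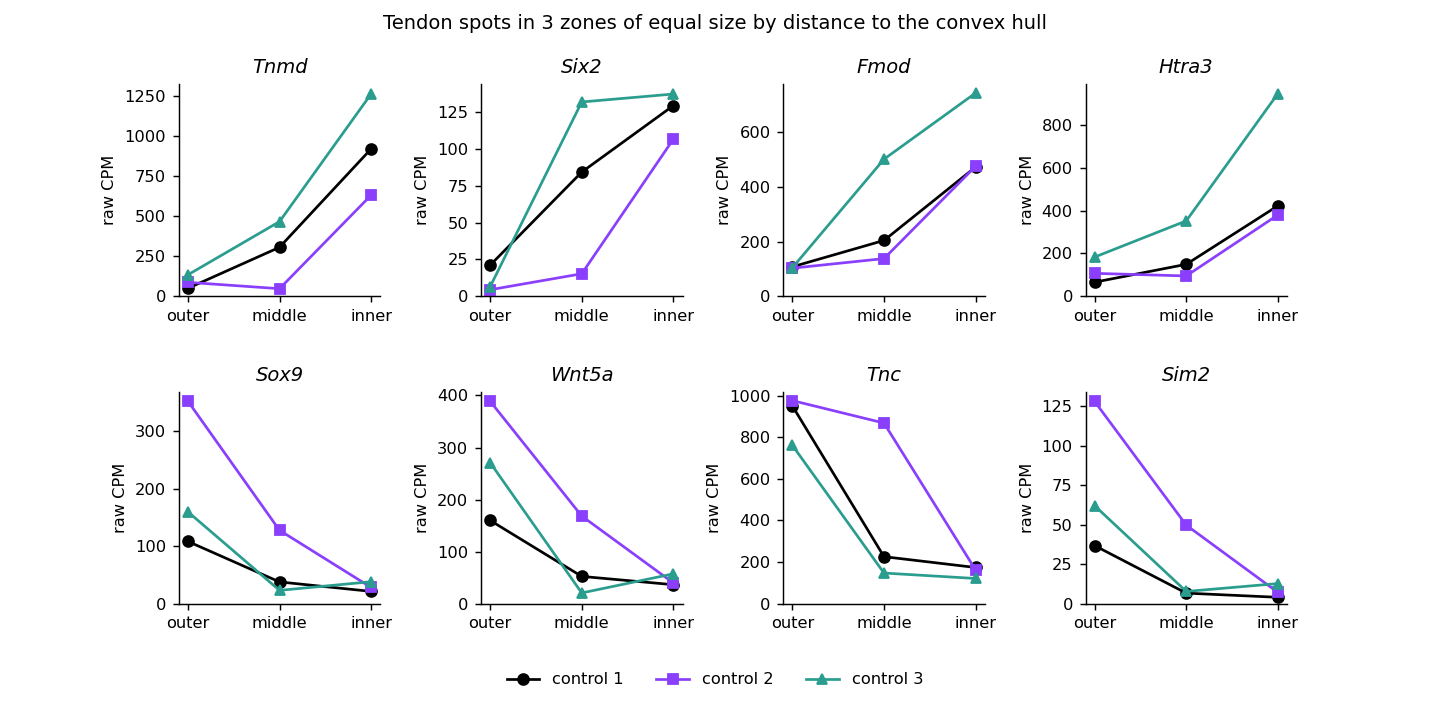
Raw CPM of 8 genes in the outer, middle and inner zone of the tendon spots by distance to the convex hull, with 1 line per control section. *Tnmd* reaches 919, 630 and 1261 in the inner zones of controls 1, 2 and 3, and *Tnc* falls from 950, 976 and 761 to 174, 162 and 121.

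The same rule was applied to the 2 control sections at E18.5, to ask whether the contrast held its size later in development. The difference between the stages was called for 256 of 12352 genes (2.07%), and for 18 of the 23 named here, of which 11 were higher and 7 lower in central spots at E14.5. These 23 were chosen for their change at E14.5, and the same sums enter the interaction, so the choice favors a smaller contrast at E18.5 and nothing is read from their share. *Tnmd* was at 1750 and 1222 CPM in central and at 1177 and 1381 in peripheral spots of E18.5 controls 1 and 2, so the parts overlapped. Its change was 0.20 at E18.5, smaller than at E14.5 by 2.71 ± 0.26 (interaction, edgeR adjusted p = 3e-05, n = 3 and 2 sections). *Six2* was at 61.6 and 80.4 in central and 49.8 and 84.1 in peripheral spots, a difference between the stages of -2.51 ± 0.33 (adjusted p = 0.00051). *Zcchc12* was at 3.06 and 5.00 against 2.55 and 3.24 CPM (2.75 ± 0.56, adjusted p = 0.012), and its call was lost without E18.5 control 1 or 2. At E18.5 its counts lay below the filter of that stage. It thus entered the interaction through its E14.5 sums, on which it was also picked.

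*Sox9* was at 9.61 and 11.5 CPM in central and 113 and 107 in peripheral spots at E18.5. Its change was -3.38 there, and the difference between the stages was not called (-0.99 ± 0.30, adjusted p = 0.12). For *Bmper*, *Sim2*, *Hoxc6* and *Lhx2* the difference between the stages was not called either (interaction, adjusted p from 0.12 to 0.78). Their changes were -1.67, -1.64, -1.55 and 0.47 at E18.5 against -2.63, -2.65, -1.88 and 1.59 at E14.5. A missing call does not show that these contrasts held their size. *Tnc* was at 325 and 364 in central and 465 and 419 CPM in peripheral spots at E18.5, and differed between the stages by 1.55 ± 0.16 (adjusted p = 4.7e-05).

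At E18.5 the sections reached the border of the array with 108 and 70 spots (3.12% and 2.77% of those kept), where the hull follows the array and not the tissue. The median distance that split the tendon spots was 1650 and 2042 µm there, against 941, 631 and 687 µm at E14.5. Peripheral spots at E18.5 could thus lie much deeper in the section. The peripheral spots of E18.5 held patches with *Tnmd* at 1520 and 2926 raw CPM in control 1 and at 1870 and 1001 in control 2, beside patches at 81.8 and 12.6. *Sox9* was at 387 and 557 raw CPM in these last patches and at 6.70 to 10.6 in the patches with high *Tnmd*. In the central patches *Sox9* was at 1.99 to 14.1 raw CPM, a range that holds the values of the peripheral patches with high *Tnmd*. The stage, the distance of the split from the hull and the way the section met the array cannot be told apart here. Without the block by section the fit called 0 genes (634 at an unadjusted p under 0.05), and without E18.5 control 1 or 2 the counts were 161 and 147.

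**Figure D5:**
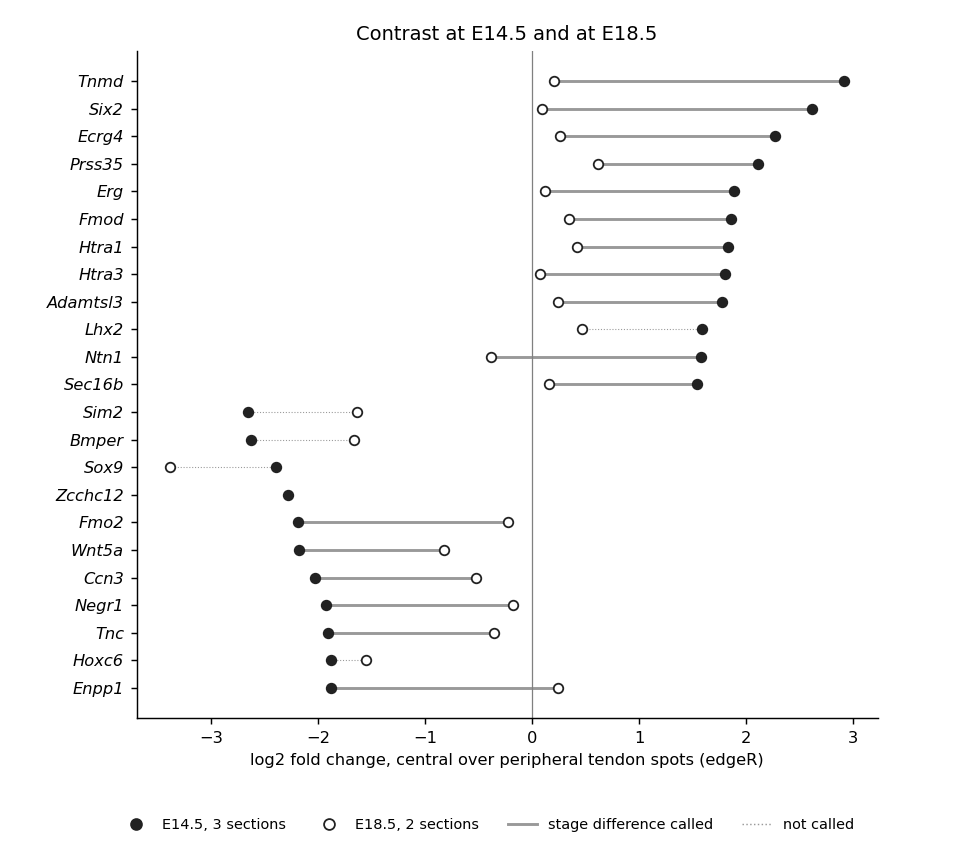
Log2 fold change of central over peripheral spots at E14.5 (3 controls) and at E18.5 (2 controls) for the 23 named genes, each stage from its own edgeR fit, with a solid line where the difference between the stages was called and a dotted one where it was not. *Tnmd* goes from 2.91 to 0.20, and *Sox9* from -2.39 to -3.38. *Zcchc12* has no value at E18.5, where its counts were below the filter.

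In the CaV1.1 KO at E14.5, which lacks the channel that starts contraction, the rule found 105 central and 105 peripheral tendon spots in 1 section. The tendon cut of this section lay at 0.701, against 0.881, 0.966 and 1.06 in the E14.5 controls. This section lay in 2 pieces, with 155 of 892 spots outside the larger, and has no replicate, so its values have no test. *Tnmd* was at 31.8 raw CPM in central and 7.31 in peripheral spots (97 and 37 UMIs). Both values lay below its 47.5, 55.6 and 66.0 raw CPM in muscle spots of the E14.5 controls, so *Tnmd* did not bear out the label tendon here. *Prss35* was at 215 and 86.9, *Lhx2* at 68.6 and 20.9, and *Fmod* at 139 and 105 raw CPM. *Wnt5a* was at 37.7 in central and 57.5 in peripheral spots, *Negr1* at 23.3 and 72.3 and *Sox9* at 96.5 and 102. Of the 12 genes higher in central spots of the controls 10 were higher in central spots here too, and of the 11 lower genes 8 were lower. The share over all genes was not counted, and the median spot held 9825 UMIs in central and 31551 in peripheral spots. Among the lower genes *Sox9*, *Tnc*, *Bmper* and *Zcchc12* had log2 ratios of only -0.09, -0.17, -0.18 and -0.22. *Htra1* and *Erg* were the 2 higher genes that went the other way, at 55.8 against 73.7 and 39.7 against 42.5 raw CPM. The lower genes that did so were *Fmo2*, *Hoxc6* and *Enpp1*, at 34.1 against 30.0, 22.6 against 19.4 and 19.4 against 15.6 raw CPM. In this section the largest central patches held *Tnmd* at 131, 93.1, 3.22 and 1.14 raw CPM, so the spots that the rule called central fell into patches with and without it. In the same order these patches held *Alb* at 2145, 7806, 1775 and 31.8 raw CPM, and the part of liver RNA in the values was not tested.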

How the data were processed

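Spatial expression was read by 10x Visium FFPE probes in 8 sections of mouse diaphragm. The authors made the deposited counts, which are whole UMI counts per gene and spot with no normalization, with Space Ranger on mm10 (GRCm38). A UMI stands for a ligated probe pair, so the counts cover the probed part of a transcript and levels of different genes are not compared. Spots with at least 1000 UMIs were kept, and the rule was applied per section with Otsu's cut (scikit-image 0.26.0) on log-normalized counts per 10000 UMIs. UMIs were summed per section and part, because spots are not replicates. The 6 sums were tested with edgeR 4.0.16 (filterByExpr, TMM, quasi-likelihood F test, section as a block, Benjamini-Hochberg over all genes, called at an adjusted p under 0.05), and the 10 sums of both stages by the interaction. SE is the log2 fold change over the square root of F. The section is the pair because both parts come from 1 embryo, and their deviations from the part means correlate at 0.561, 0.332 and 0.266 in controls 1, 2 and 3.

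The named genes of each direction come from the 12 of largest change among the called genes whose mean level was 5 or more (log2 CPM) and whose direction was shared by 3 of 3 sections, and 1 lower gene is not reported here. In each list up to 6 called members of largest change and up to 3 uncalled ones of highest level could be named. Members and lists were chosen with earlier results of these data known. Alternatives were DESeq2 1.42.0 and its size factors, library size alone, no filter, other distances and cuts, spots away from muscle, no block, and each section left out. Gene positions and promoters are from RefSeq on GRCm38.p6. Moran's I, which the authors also deposited as a score per gene with a p-value, was not used, nor were images.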

Additional observations from a re-analysis of the deposited data

Results flagged for a closer look

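The contrast between central and peripheral tendon spots differed between the stages, by the interaction test of the 10 sums, for 18 of the 23 named genes. The values are the log2 fold change of central over peripheral at E18.5 minus that at E14.5, so a negative value marks a rise that was smaller at E18.5 or turned (*Ntn1*) and a positive value a fall that was smaller or turned. The genes were chosen for their change at E14.5 and the test uses the same sums, so a smaller contrast at E18.5 is favored by the choice. Among the genes higher in central spots at E14.5, *Tnmd* differed by -2.71, *Six2* by -2.51, *Ecrg4* by -2.0, *Ntn1* by -1.97, *Erg* by -1.77 and *Htra3* by -1.73. *Adamtsl3* differed by -1.54, *Fmod* by -1.52, *Prss35* by -1.50, *Htra1* by -1.42 and *Sec16b* by -1.38. Among the genes lower in central spots, *Zcchc12* differed by 2.75, *Enpp1* by 2.12, *Fmo2* by 1.96 and *Negr1* by 1.75. The counts of *Zcchc12* were below the filter at E18.5, so it entered this test through its E14.5 sums. *Tnc* differed by 1.55, *Ccn3* by 1.51 and *Wnt5a* by 1.35. With the 2 sections of E18.5 the peripheral spots held patches of 31 and 12 spots in control 1 and of 19 and 13 spots in control 2 with *Tnmd* at or above 1001 raw CPM. The part of these patches in the difference was not tested.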

How the results depend on the processing

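The count of 1010 genes became 269 with DESeq2, 55 without spots that touched muscle and 0 with no replicate block. Without replicate 1, 2 or 3 it was 723, 585 and 864, and 598, 475 and 793 of these were among the 1010. Other settings gave from 775 (tendon cut over spots outside muscle) to 1296 (no filter on low counts), with 848 for the distance to the centroid, 973 for the concave outline and 1018 for the hull of the largest piece, which was added after seeing the data. Library size alone called 365 higher and 609 lower (37.5% higher against 46.8%), and moved the median of all genes to -0.05. The pairing by section is part of the design, and with no replicate block no named gene was called. The 12 higher and 11 lower genes kept their direction in each setting that gave them a value, and lost no call when a section was left out, except that *Fmo2* was below the filter and not tested without replicate 2. In spots that touched no muscle 7 of them lost it: *Erg*, *Lhx2*, *Sec16b*, *Zcchc12*, *Negr1*, *Tnc* and *Enpp1*. Of the other genes named as called, 37 lost the call there too: *Eya2*, *Eya1*, *Col25a1*, *Col13a1*, *Col1a2*, *Col1a1*, *Loxl1*, *Bgn*, *Lum*, *Cilp*, *Thbs2*, *Fbln2*, *Bmp5*, *Bmp3*, *Wnt11*, *Daam2*, *Fgf7*, *Hoxa7*, *Hoxb6*, *Alx4*, *Adamts6*, *Adam12*, *Aldh1a2*, *Igfbp3*, *Ccnd2*, *Cdkn1a*, *Atp2a1*, *Tnni1*, *Thbs4*, *Fras1*, *Col22a1*, *Runx2*, *Msln*, *Wt1*, *Cd248*, *Cdh5* and *Alb*. *Sfrp4*, *Hoxc9*, *Hoxb7* and *Alx1* were not tested there. DESeq2 did not call *Eya2*, *Eya1*, *Col13a1*, *Bmp5*, *Wnt11*, *Fgf7*, *Fgfr2*, *Hoxc9*, *Aldh1a2*, *Thbs4*, *Col22a1* and *Alb*. Signs turned only in genes that were not called: *Postn* was at 0.0302 with all spots, 0.0466 with the centroid, 0.0605 with the largest piece, 0.0623 away from muscle and between -0.349 and 0.354 when a replicate was left out; *Gata4* was at -0.0340 with the largest piece and between -0.526 and 0.569 when a replicate was left out; and *Mmp2* was at 0.0547 away from muscle.

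The 256 genes that differed between the stages became 78 with DESeq2, 577 with no filter on low counts and 0 with no replicate block. The leave-one-out counts ranged from 147 to 318, and the lowest, 161 and 147, were those without E18.5 replicate 1 or 2, where the lone section of that stage is assumed to vary as the others do. *Negr1* and *Fmo2* lost this call without E18.5 replicate 1 (0.086 and 0.22), and *Negr1* also without E18.5 replicate 2 (0.13), E14.5 replicate 2 (0.25) and with DESeq2 (0.44), and both lost it with the tendon score without *Col11a1* (0.064 and 0.068). The summed muscle genes were higher in central spots by 0.31 (mean log2 ratio of 3 sections), and by 0.23 away from muscle, where control 3 turned. Sums of 476533 UMIs in control 3 give a gene at 2 CPM about 1 UMI, so low genes rest on controls 1 and 2. The count filter can be met by the sums of 1 part alone. Genes with few UMIs in the other part, such as *Kera*, *Hoxc8*, *Bmper*, *Sfrp4* and *Runx2*, could enter the test through the part where they are high.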
